A study of Mus musculus with 8 samples.

Results

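The 40 genes described here handle zinc, copper and iron in mouse mammary epithelium at pregnancy day 14.5. They are the protein-coding genes of the deposited table whose names mark them as Slc30a zinc exporters or Slc39a importers, together with 16 named genes for metallothioneins, copper transport, and iron uptake, storage and export. They are 40 of the 55933 genes measured and are defined by name alone, in a list drawn up with earlier results of these data known. By role they comprise 10 Slc30a genes, 14 Slc39a genes, 4 genes for metallothioneins and their regulator, 4 copper transporters and 8 iron genes.

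RNA-seq libraries from 4 control mice and 4 cKO mice were compared, with 1 library per mouse. All mice were C57BL/6 and at pregnancy day 14.5. The cKO mice were K14-rtTA;teto-Cre;Bmpr1a fl/fl animals given doxycycline, so that Cre removes the receptor gene Bmpr1a in cells with an active K14 promoter, which in the gland are the myoepithelial cells. The controls were littermates, which the sample labels call WT and whose alleles are not given further in the sources used here. Glands were digested with collagenase and hyaluronidase and red blood cells were lysed, so each library holds a whole epithelial preparation and not sorted myoepithelial cells. A difference between libraries can therefore come from fewer cells of a type or from less RNA per cell, and these cannot be told apart.

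Metal ions cross membranes only through dedicated proteins. Slc30a proteins (ZnT) move zinc out of the cytosol, to the outside or into vesicles, and Slc39a proteins (ZIP) move zinc and, for some members, iron or manganese into it. Metallothioneins are small cysteine-rich proteins that bind zinc and copper, and their genes are switched on by the zinc-sensing factor MTF1 at metal response elements in their promoters. Copper enters through Slc31a1 and leaves through the pumps Atp7a and Atp7b, while iron enters by Tfrc and Slc11a2, is stored in ferritin and leaves through Slc40a1. Mammary epithelium passes all 3 metals into milk. Mutations of Slc30a4 in the lethal milk mouse and of Atp7b in the toxic milk mouse leave milk short of zinc and copper, respectively.

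Each library held between 16123108 and 19896988 reads on genes. Values are FPKM, the fragments counted for each kilobase of a gene after correction for depth, and 4 values in a row are those of replicates 1 to 4. Luminal epithelial markers (the keratins Krt8, Krt18 and Krt19, the adhesion gene Epcam and the alveolar transcription factor Elf5) summed to 4469 to 5670 FPKM in the control libraries and 4367 to 5669 FPKM in the cKO libraries, so the labelled tissue was met in all 8. Elf5 alone averaged 21.3 ± 3.91 FPKM in control and 38.5 ± 8.02 FPKM in cKO (SD, n = 4 each), with no overlap. Bmpr1a, the targeted gene, averaged 10.1 ± 1.28 FPKM in control and 11.2 ± 1.01 FPKM in cKO (SD, n = 4 each, two-sided exact permutation test, p = 0.257). Bmpr1a RNA therefore gave no check of the labels, and all directions below rest on them. Among the marker genes, the milk gene Wap averaged 38.5 ± 18.1 FPKM in control and 186 ± 91.7 FPKM in cKO (SD, n = 4 each, limma, adjusted p = 0.034), and all 10 milk genes had a higher mean in cKO. Libraries also resembled each other by set, replicates 1 and 2 against replicates 3 and 4 of both groups, so differences are given within each set as well.

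The limma test was run on log2(FPKM + 1) for 15143 genes, those that averaged at least 0.5 FPKM over the 8 libraries, with Benjamini-Hochberg adjustment over all of them. Log2 fold changes are cKO minus control on that scale, and they understate the change of weakly expressed genes. Of the 40 metal genes, 32 were tested and 8 lay below the filter. The lowest group mean among the 32 was 0.527 FPKM, for Slc40a1 in control, so none passed the filter on a single group's level.

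At an adjusted p under 0.05, 3 of the 32 genes were higher in cKO, namely Slc31a2, Slc30a2 and Slc39a14, and 0 were lower. Over all genes tested, 0.892% were called at this threshold and 0.588% were called as higher in cKO. At an unadjusted p under 0.05, 9 of the 32 were higher and 1 was lower, where all genes gave 8.85% higher and 7.53% lower (16.4% in either direction). In 9 genes every cKO library lay above every control library, against 6.1% of all genes, and in 1 gene every cKO library lay below, against 4.6% (10.7% of all genes did not overlap in either direction). The median log2 fold change of the 32 genes was 0.10 and that of all genes tested was 0.00072. A positive value was found in 21 of the 32 genes and in 7603 of the 15143 genes tested. With libraries scaled to the same sum of FPKM, the medians were 0.045 for the 32 genes and -0.048 for all genes.

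The members spanned a wide range of levels. Mt1 (mean of 834 FPKM over the 8 libraries), Fth1 (615 FPKM) and Ftl1 (404 FPKM) stood highest, followed by Mt2 (97.7 FPKM), Slc39a1 (75.5 FPKM) and Slc31a2 (52.1 FPKM). Slc30a8 had no reads in any library.

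**Figure D1:**
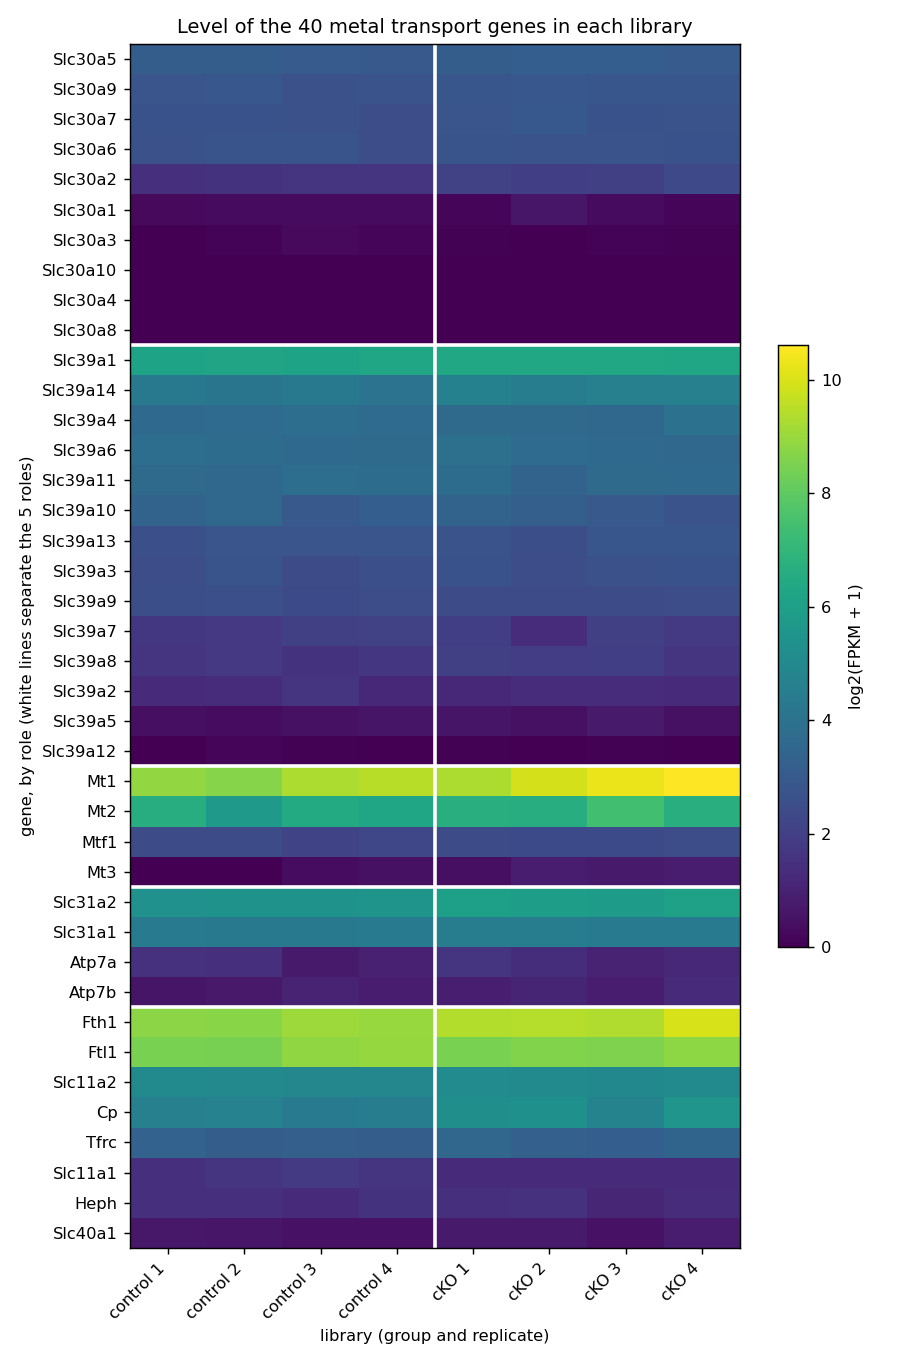
Level of the 40 metal transport genes (vertical, grouped by role) in each of the 8 libraries (horizontal) as log2(FPKM + 1) in colour, with a white line between control and cKO. Mt1, Fth1 and Ftl1 form the brightest rows in both groups, Mt1 brightens from control to cKO, and the lower 5 Slc30a rows are near 0 throughout.

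The DNA before the start of the metallothionein genes and of Slc31a2 is shown because these are the most abundant members with a higher cKO mean that hold a match to the metal response element, whose core is TGCACNC or TGCGCNC. Both strands were searched in the 250 bases before each RefSeq start. The sequences are from RefSeq on GRCm38.p6, all on the + strand and written 5′ to 3′, and capitals mark the core matches. They cover chr8:94178839-94179081 for Mt1, chr8:94172368-94172617 for Mt2 and chr4:62286179-62286428 for Slc31a2. The Mt1 print stops at 243 bases, before the earliest annotated exon.
Mt1: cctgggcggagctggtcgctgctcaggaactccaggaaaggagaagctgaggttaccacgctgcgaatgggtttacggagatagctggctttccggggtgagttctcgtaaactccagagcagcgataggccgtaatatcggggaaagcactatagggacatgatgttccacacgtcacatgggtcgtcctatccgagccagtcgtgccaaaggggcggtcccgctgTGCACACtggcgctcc
Mt2: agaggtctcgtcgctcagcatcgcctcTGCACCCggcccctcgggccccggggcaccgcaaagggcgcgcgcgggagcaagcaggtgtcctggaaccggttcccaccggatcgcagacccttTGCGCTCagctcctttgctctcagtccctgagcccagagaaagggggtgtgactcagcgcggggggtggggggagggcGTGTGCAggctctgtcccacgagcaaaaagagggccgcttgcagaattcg
Slc31a2: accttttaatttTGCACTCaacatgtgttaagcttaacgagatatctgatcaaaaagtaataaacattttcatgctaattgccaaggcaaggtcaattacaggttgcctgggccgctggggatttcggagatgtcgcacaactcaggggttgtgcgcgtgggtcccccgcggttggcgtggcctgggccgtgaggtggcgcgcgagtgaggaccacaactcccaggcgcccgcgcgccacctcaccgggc

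Mt1 held 1 match, 23 bases before the RefSeq start. Mt2 held 3 matches, of which 2 were on the gene's strand and 1 on the other. Slc31a2 held 1 match, 238 bases before the start, and its window lies in an intron of the GENCODE vM21 transcript that starts upstream at 62262562, between the exon ending at 62273834 and that starting at 62292632. A core of this length is common, as 7032 of 32851 windows (21.4%) in the whole RefSeq table held at least 1. For the metal genes, 33 had a window, and 17 of their 41 windows (41.5%) held a match, in 16 genes. Besides the 3 shown these were Slc30a1, Slc30a2, Slc30a3, Slc30a4, Slc30a5, Slc30a10, Slc39a3, Slc39a5, Slc39a8, Slc39a11, Atp7a, Atp7b and Tfrc. Heph, Slc11a2, Slc30a8, Slc39a14, Slc39a4, Slc39a6 and Slc40a1 had no window in the table. GENCODE vM21 also lists starts of Mt1 at 94179211 and 94179241 and of Mt2 at 94172664 and 94172860, and of Slc31a2 at 62286449 and 62291547, downstream of the RefSeq starts, and the bases between were not searched. A match describes the letters of a window and not binding by MTF1.

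Among the zinc exporters, Slc30a2 was the gene that differed. It encodes ZnT2, which loads zinc into vesicles of secretory cells and is needed for zinc in milk, and it lies at chr4:134343181-134354484 on GRCm38. Its level was 1.76, 1.91, 2.08 and 2.02 FPKM in control and 3.31, 2.93, 3.07 and 4.11 FPKM in cKO. Every cKO library lay above every control library, and cKO replicate 4 was the highest. The means were 1.94 ± 0.137 and 3.36 ± 0.527 FPKM (SD, n = 4 each), 1.73 times higher in cKO. The log2 fold change was 0.56 ± 0.094 (SE, limma, Benjamini-Hochberg adjusted p = 0.0377), with 0.54 within replicates 1 and 2 and 0.58 within replicates 3 and 4. Between 109 and 272 reads lay on the gene per library. The call depended on all 8 libraries, since leaving out any of them gave adjusted p values between 0.0568 and 0.106. It was also lost with no filter on low values (limma, adjusted p = 0.0975).

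The 4 other Slc30a genes that were tested had small differences, and none passed either threshold. Slc30a5, which supplies zinc to enzymes of the secretory pathway, was the most abundant of the family, at 7.82, 7.86, 7.33 and 6.82 FPKM in control and 7.77, 8.08, 8.01 and 7.32 FPKM in cKO. The groups overlapped, and its log2 fold change was 0.057 ± 0.065 (SE, limma, adjusted p = 0.714). Slc30a6 and Slc30a7, which also serve the secretory pathway, and Slc30a9 had mean levels of 5.16 to 6.18 FPKM in either group. In Slc30a7 each cKO library exceeded each control library, by a mean log2 difference of 0.16 ± 0.073 (SE, limma, adjusted p = 0.332).

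The other 5 Slc30a genes lay below the filter. Slc30a4, the zinc exporter mutated in the lethal milk mouse, was at 0 in the 4 control libraries and in cKO replicates 1, 2 and 4, and at 0.0115 FPKM, a single read, in cKO replicate 3. No difference in Slc30a4 was detectable at this depth. Slc30a1, the plasma membrane exporter and a known MTF1 target, was at 0.220, 0.253, 0.239 and 0.254 FPKM in control and 0.119, 0.566, 0.228 and 0.154 FPKM in cKO. In cKO, replicate 2 lay above the control range and replicates 1 and 4 below it, on 12 to 49 reads, and the groups did not separate (two-sided exact permutation test, p = 0.971). Slc30a3 had 1 to 9 reads per library and Slc30a10 0 to 2.

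Of the 14 zinc importers, 12 were tested, 3 had an unadjusted p under 0.05 (16.4% of all genes), all higher in cKO, and 1 passed adjustment (0.892% of all genes). Their median log2 fold change was -0.0087, and 8 of the 12 had a negative value, against 7540 of the 15143 genes tested. Slc39a14 (ZIP14, chr14:70303469-70351425), which carries zinc and also iron that is not bound to transferrin, rose. It was at 18.6, 16.3, 18.4 and 15.4 FPKM in control and at 24.2, 21.5, 23.7 and 23.5 FPKM in cKO. The groups did not overlap. The means were 17.2 ± 1.58 and 23.2 ± 1.195 FPKM (SD, n = 4 each), 1.35 times higher in cKO, and the log2 fold change was 0.42 ± 0.076 (SE, limma, adjusted p = 0.0488). It came to 0.37 in the set of replicates 1 and 2 and to 0.46 in the other set. This call was near the threshold and was lost when any single library was left out (adjusted p from 0.0736 to 0.125), and also when libraries were scaled to the same sum of FPKM (adjusted p = 0.106) or no filter on low values was used (adjusted p = 0.0971).

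Slc39a1 (ZIP1, chr3:90248172-90253612), a broadly expressed plasma membrane importer, was the most abundant importer. Its FPKM was 69.9, 72.4, 69.96 and 75.2 in control and 79.0, 78.2, 81.7 and 77.7 in cKO. All cKO libraries were higher, though by a small amount, with means of 71.9 ± 2.50 and 79.2 ± 1.76 FPKM (SD, n = 4 each) and a log2 fold change of 0.14 (limma, adjusted p = 0.257). With libraries scaled to the same sum of FPKM the difference was 0.077 (adjusted p = 0.648) and the unadjusted p was above 0.05, as it was without cKO replicate 1, 2 or 3 or control replicate 1, 2 or 3 (log2 fold changes of 0.12 to 0.16 over all omissions).

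Slc39a8 (ZIP8, chr3:135825279-135888572), a carrier of zinc and manganese related to Slc39a14, was at 2.15, 2.35, 1.98 and 2.18 FPKM in control and 3.06, 2.84, 2.93 and 2.14 FPKM in cKO. The first 3 cKO libraries lay above all controls and replicate 4 lay within their range. The log2 fold change was 0.24 (limma, adjusted p = 0.259). Without cKO replicate 4 it was 0.32 (adjusted p = 0.142). The unadjusted p was above 0.05 without cKO replicate 1, 2 or 3 or control replicate 1, 3 or 4, and with libraries scaled to the same sum of FPKM (log2 fold change 0.19).

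The 9 other tested importers had log2 fold changes from -0.19 (Slc39a10) to 0.050 (Slc39a3), and none had an unadjusted p under 0.05. Slc39a4, the main importer of dietary zinc in the gut, averaged 12.2 FPKM in both groups. Slc39a6 averaged 12.2 FPKM in both groups as well, and its relative Slc39a10 averaged 8.67 ± 1.73 and 7.52 ± 1.71 FPKM (SD, n = 4 each). Slc39a11 averaged 12.1 and 11.3 FPKM, Slc39a13 5.74 and 5.70 FPKM, Slc39a9 4.74 and 4.496 FPKM, Slc39a3 4.99 and 5.19 FPKM, and Slc39a2 1.61 and 1.47 FPKM in control and cKO. Slc39a7, which releases zinc from the endoplasmic reticulum, averaged 2.73 and 2.51 FPKM. Its value is uncertain because 80.7% of its exonic bases are shared with the same-strand entry Gm20427, which had 7 to 13 reads. Slc39a5 and Slc39a12 lay below the filter, at mean levels of at most 0.496 FPKM.

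Metallothionein 1 (Mt1) had the highest mean level of the 40 genes and the largest log2 fold change of the 32 tested, but it did not pass adjustment. Mt1 (chr8:94179082-94180327), Mt2 (chr8:94172664-94173568) and Mt3 (chr8:94152607-94154146) are neighbours on chromosome 8. Mt1 was at 473, 418, 628 and 707 FPKM in control and at 630, 969, 1272 and 1573 FPKM in cKO. Replicates 3 and 4 were higher than replicates 1 and 2 in both groups, and the groups overlapped because cKO replicate 1 lay below control replicate 4. The means were 556 ± 134 and 1111 ± 405 FPKM (SD, n = 4 each), and the log2 fold change was 0.95 ± 0.28 (SE, limma, adjusted p = 0.152). Within each set the cKO libraries were the higher, by 0.81 for replicates 1 and 2 and by 1.09 for replicates 3 and 4. With the sets as a block, an alternative taken from an earlier analysis of these data, the adjusted p was 0.0279, and in the other alternatives it ran from 0.0633 to 0.312.

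Mt2 was at 97.5, 51.9, 88.9 and 77.1 FPKM in control and at 100.3, 98.4, 167.8 and 99.7 FPKM in cKO. Each cKO library exceeded each control library, but 3 of them did so narrowly and replicate 3 stood far above the rest. The means were 78.9 ± 19.8 and 117 ± 34.2 FPKM (SD, n = 4 each), and the log2 fold change was 0.56 (limma, adjusted p = 0.273). It was 0.37 without cKO replicate 3, 0.37 without control replicate 2 and 0.56 without control replicate 4, and in these 3 cases the unadjusted p was no longer under 0.05. The antisense entry Gm45774 shares 73.5% of the exonic bases of Mt2 and had 21 to 79 reads against 529 to 1567 for Mt2. Strand-specific counting is not stated, so reads from the shared bases cannot be told apart.

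Mt1 exceeded Mt2 in FPKM in every library, by a ratio of 4.85 to 9.17 in control and 6.28 to 15.8 in cKO. Their measured levels thus did not keep a fixed ratio. The size of the ratio depends on the gene lengths used (1246 bases for Mt1, 588 bases for Mt2) and on the uncertain count of Mt2. Mt3, known from brain, was below the filter, at 0, 0, 0.280 and 0.400 FPKM in control and 0.340, 0.796, 0.709 and 0.758 FPKM in cKO. In cKO, replicates 2, 3 and 4 lay above all controls, on at most 15 reads (two-sided exact permutation test, p = 0.0571). Mtf1, the factor that activates metallothionein genes, was at 4.34, 4.45, 3.53 and 3.79 FPKM in control and 4.46, 4.19, 4.21 and 4.75 FPKM in cKO. The groups overlapped, and its log2 fold change was 0.11 (limma, adjusted p = 0.563).

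**Figure D2:**
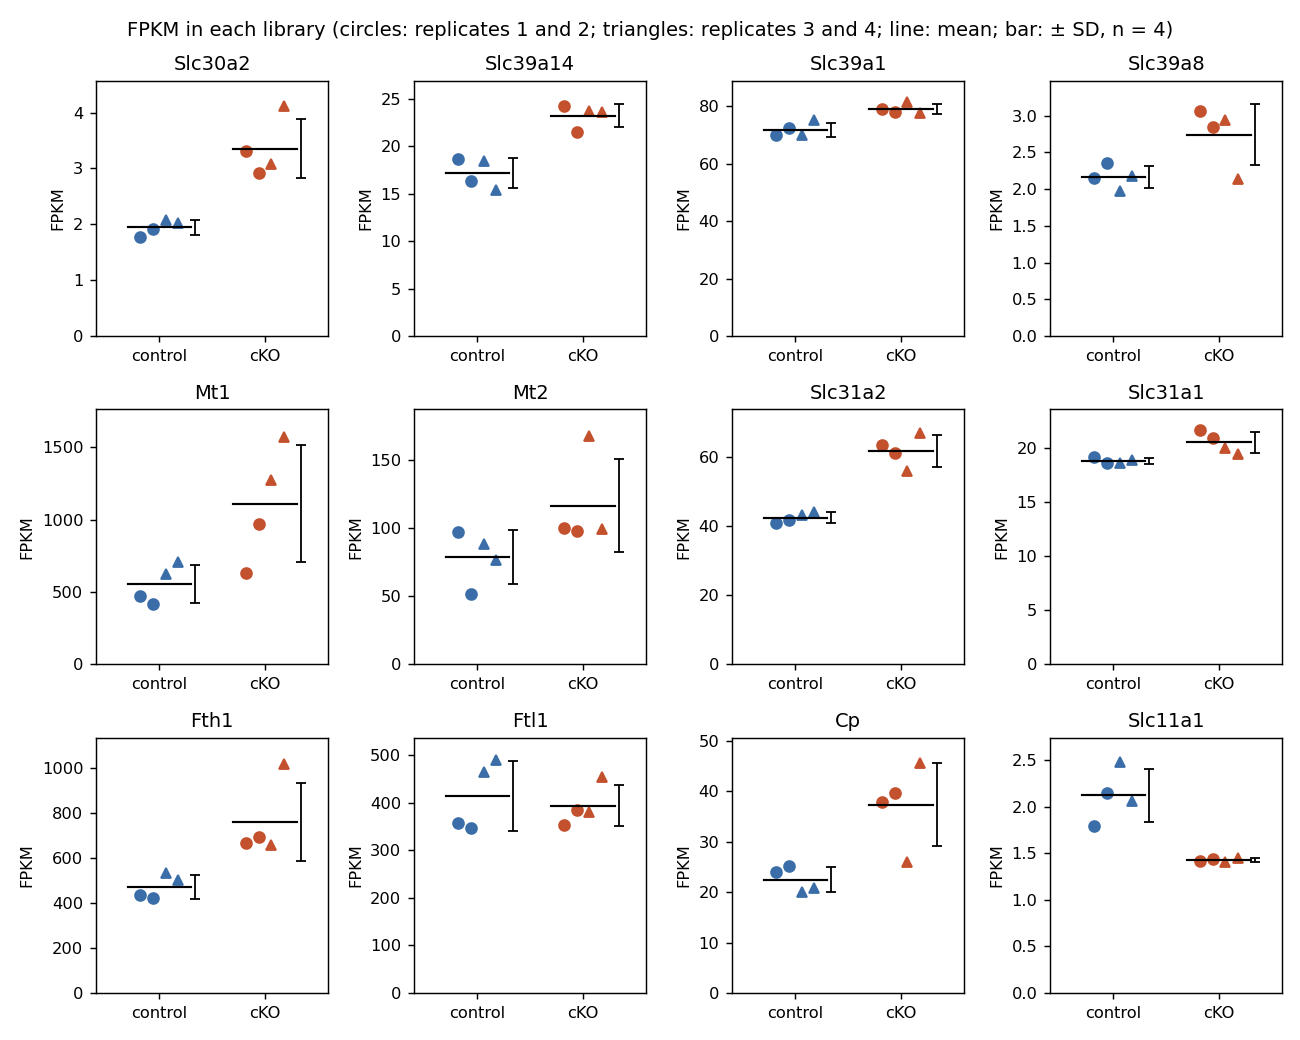
FPKM (vertical) of 12 of the genes in control and cKO libraries (horizontal), with circles for replicates 1 and 2, triangles for replicates 3 and 4, a line at the mean and a bar of ± SD (n = 4). Slc30a2, Slc39a14, Slc39a1, Mt2, Slc31a2, Slc31a1, Fth1 and Cp show no overlap with cKO above, Slc11a1 shows none with cKO below, and Ftl1 overlaps throughout.

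Slc31a2 gave the smallest p of the 40 genes. It lies at chr4:62262562-62298411, near its relative Slc31a1 at chr4:62360727-62391769. It encodes CTR2, a protein of intracellular vesicles that adjusts copper uptake, whereas Slc31a1 encodes CTR1, the copper importer of the plasma membrane. Slc31a2 was at 40.8, 41.8, 43.2 and 44.2 FPKM in control and at 63.4, 61.0, 55.8 and 66.9 FPKM in cKO. The lowest cKO library was well above the highest control. The means were 42.5 ± 1.51 and 61.8 ± 4.67 FPKM (SD, n = 4 each), 1.46 times higher in cKO. The log2 fold change was 0.53 ± 0.069 (SE, limma, adjusted p = 0.0266), with 0.58 within replicates 1 and 2 and 0.48 within replicates 3 and 4. It kept an adjusted p under 0.05 without cKO replicate 1 and without cKO replicate 3, and gave adjusted p values up to 0.0837 without cKO replicate 2 or 4 or any control library. With no filter on low values the adjusted p was 0.0507 (limma).

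Slc31a1 differed less, at 19.2, 18.6, 18.6 and 18.9 FPKM in control and 21.6, 20.9, 20.01 and 19.4 FPKM in cKO. Every cKO library was higher, but the log2 fold change was 0.12 ± 0.055 (SE, limma, adjusted p = 0.333).

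The copper pumps were low in all libraries. Atp7a, which delivers copper to secreted enzymes and exports it, was at 1.88, 1.78, 0.704 and 0.976 FPKM in control and 2.03, 1.65, 1.02 and 1.24 FPKM in cKO. It followed the sets and not the groups, as replicates 1 and 2 exceeded replicates 3 and 4 in both (log2 fold change 0.11, limma, adjusted p = 0.831). Atp7b, the pump that is defective in Wilson disease, was at 0.506, 0.666, 1.07 and 0.827 FPKM in control and 0.860, 1.165, 0.755 and 1.42 FPKM in cKO. The groups overlapped (log2 fold change 0.21, limma, adjusted p = 0.488), and the log2 fold change ran from 0.13 without cKO replicate 4 to 0.29 without control replicate 3 and was 0.41 with a pseudocount of 0.1.

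Of the 8 iron genes, all were tested, 2 were higher and 1 lower at an unadjusted p under 0.05 (8.85% and 7.53% of all genes), and 0 passed adjustment (0.892% of all genes). Ferritin, the iron store of the cell, is a shell built of heavy chains (Fth1), which oxidise iron, and light chains (Ftl1), which help to hold it. Fth1 (chr19:9980598-9985098) was at 434, 420, 532 and 500 FPKM in control and at 665, 695, 658 and 1019 FPKM in cKO. All cKO libraries lay above all controls, and cKO replicate 4 stood apart from the other 3. The means were 471 ± 53.1 and 759 ± 174 FPKM (SD, n = 4 each), 1.61 times higher in cKO, and the log2 fold change was 0.67 ± 0.16 (SE, limma, adjusted p = 0.0861). Without cKO replicate 4 it was 0.52 (adjusted p = 0.116). Over the alternatives the adjusted p ran from 0.0379, with the set as a block, to 0.226, with no filter on low values. It was under 0.05 in 3 of them, the others being limma-voom on recovered reads (0.0428) and scaling to the same sum without the milk genes (0.0488).

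Ftl1 (chr7:45457944-45459884) did not differ in the same way. It was at 357, 347, 466 and 489 FPKM in control and at 354, 386, 381 and 454 FPKM in cKO. Replicates 3 and 4 held the highest control values, and the groups overlapped. The means were 415 ± 73.2 and 394 ± 42.8 FPKM (SD, n = 4 each), and the log2 fold change was -0.064 ± 0.14 (SE, limma, adjusted p = 0.859). Ftl1 shares 26.5% of its exonic bases with the opposite-strand entry Gm10252 (20 to 47 reads), and both ferritin genes have near-identical copies, of which Ftl1-ps1 was the most abundant at 13.3 to 21.1 FPKM, so a part of their reads may be assigned to either copy.

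The Fth1 to Ftl1 ratio of FPKM, chosen after the values were seen and given with no test, was 1.22, 1.21, 1.14 and 1.02 in control and 1.88, 1.80, 1.73 and 2.24 in cKO. The ratio was thus higher in every cKO library than in any control library. Its level depends on the gene lengths used for FPKM, 3469 bases for Fth1 and 1340 bases for Ftl1. It therefore does not show whether the heavy and light chain RNAs were equal in number. The means were 1.15 ± 0.091 and 1.91 ± 0.228 (SD, n = 4 each).

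**Figure D3:**
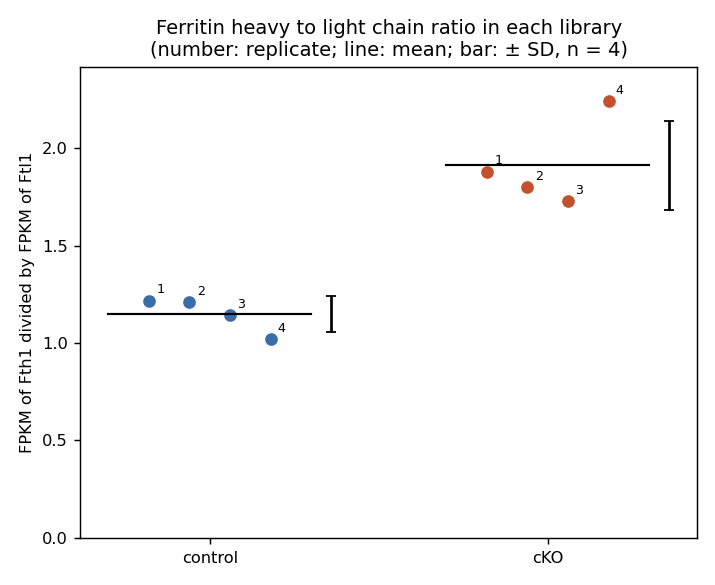
Ratio of Fth1 FPKM to Ftl1 FPKM (vertical) in the control and cKO libraries (horizontal), numbered by replicate, with a line at the mean and a bar of ± SD (n = 4). The control ratios lie between 1.02 and 1.22 and the cKO ratios between 1.73 and 2.24.

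Ceruloplasmin (Cp, chr3:19957054-20009145) is a secreted copper-dependent oxidase that prepares exported iron for transferrin. It was at 24.0, 25.1, 20.1 and 20.8 FPKM in control and 38.0, 39.7, 25.9 and 45.6 FPKM in cKO. The lowest cKO library, replicate 3, was only just above the highest control. The means were 22.5 ± 2.44 and 37.3 ± 8.25 FPKM (SD, n = 4 each), 1.66 times higher in cKO, and the log2 fold change was 0.68 ± 0.16 (SE, limma, adjusted p = 0.0842). Without cKO replicate 3 the log2 fold change was 0.84 and the adjusted p was 0.04, while leaving out any other library gave 0.141 to 0.185. Over all alternatives the adjusted p ran from 0.04 to 0.191, with 0.0475 by limma-voom on recovered reads. Hephaestin (Heph), its membrane-bound relative, was at 1.72, 1.78, 1.41 and 1.92 FPKM in control and 1.71, 1.82, 1.22 and 1.57 FPKM in cKO, and the groups overlapped (limma, adjusted p = 0.767).

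Slc11a1 (NRAMP1, chr1:74375195-74386062), which pumps metal ions out of the phagosomes of macrophages, was the single metal gene that was lower at an unadjusted p under 0.05. It was at 1.79, 2.15, 2.48 and 2.06 FPKM in control and 1.41, 1.44, 1.41 and 1.45 FPKM in cKO. The cKO libraries were close to each other and all below the controls, with means of 2.12 ± 0.285 and 1.43 ± 0.021 FPKM (SD, n = 4 each) and 83 to 154 reads per library. The log2 fold change was -0.36 ± 0.082 (SE, limma, adjusted p = 0.0819). All 8 macrophage markers (C1qa, C1qb, C1qc, Adgre1, Cd68, Csf1r, Mrc1, Cd163) also had a lower mean in cKO, 4 of them with an unadjusted p under 0.05, and their summed level was 149 to 201 FPKM in control and 98.8 to 153 FPKM in cKO. Over all genes tested, 7.53% were lower at this threshold. The part of macrophages in the Slc11a1 difference was not tested.

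Iron import and export genes overlapped between the groups. Slc11a2 (DMT1), which carries ferrous iron across endosomal and plasma membranes, was at 31.9, 30.9, 29.4 and 29.1 FPKM in control and 33.7, 32.1, 30.3 and 32.7 FPKM in cKO. Tfrc, the receptor for transferrin-bound iron, was at 9.03, 7.81, 8.33 and 7.74 FPKM in control and 10.3, 8.46, 8.07 and 9.81 FPKM in cKO. Slc40a1, the iron exporter ferroportin, was at 0.628, 0.584, 0.451 and 0.444 FPKM in control and 0.691, 0.694, 0.441 and 0.778 FPKM in cKO. The uptake genes were thus expressed well above the exporter, and their log2 fold changes of 0.084 for Slc11a2, 0.13 for Tfrc and 0.11 for Slc40a1 had adjusted p values of 0.533, 0.492 and 0.627 (limma). Such small values moved with 1 library, as Tfrc was at 0.082 without cKO replicate 1, and Slc40a1 at 0.073 without cKO replicate 4 and 0.17 without cKO replicate 3. Slc40a1 was at 0.25 with a pseudocount of 0.1.

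**Figure D4:**
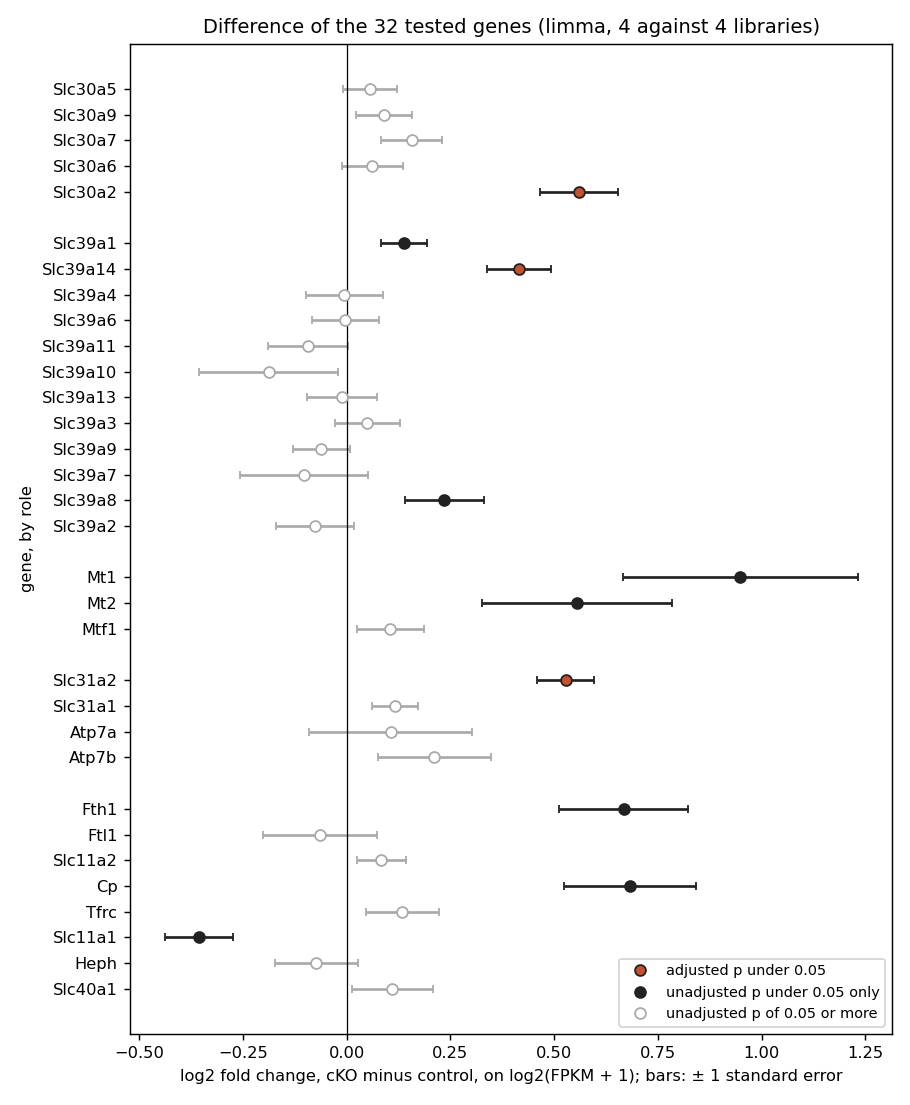
Log2 fold change of the 32 tested genes, cKO minus control on log2(FPKM + 1) (horizontal, bars ± 1 standard error from limma), with genes by role (vertical). Red points (Slc30a2, Slc39a14, Slc31a2) had an adjusted p under 0.05, black points an unadjusted p under 0.05 alone, and Mt1 lies farthest to the right at 0.95 with the widest bar.

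For the 10 genes with an unadjusted p under 0.05, the differences within the sets are given as a description, since the same libraries chose the genes. Their largest gap between the sets was for Mt1, and Fth1 differed least, by 0.67 within replicates 1 and 2 and 0.67 within replicates 3 and 4. Slc11a1 was lower by 0.29 and 0.42 on the log2 scale in the respective sets.

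**Figure D5:**
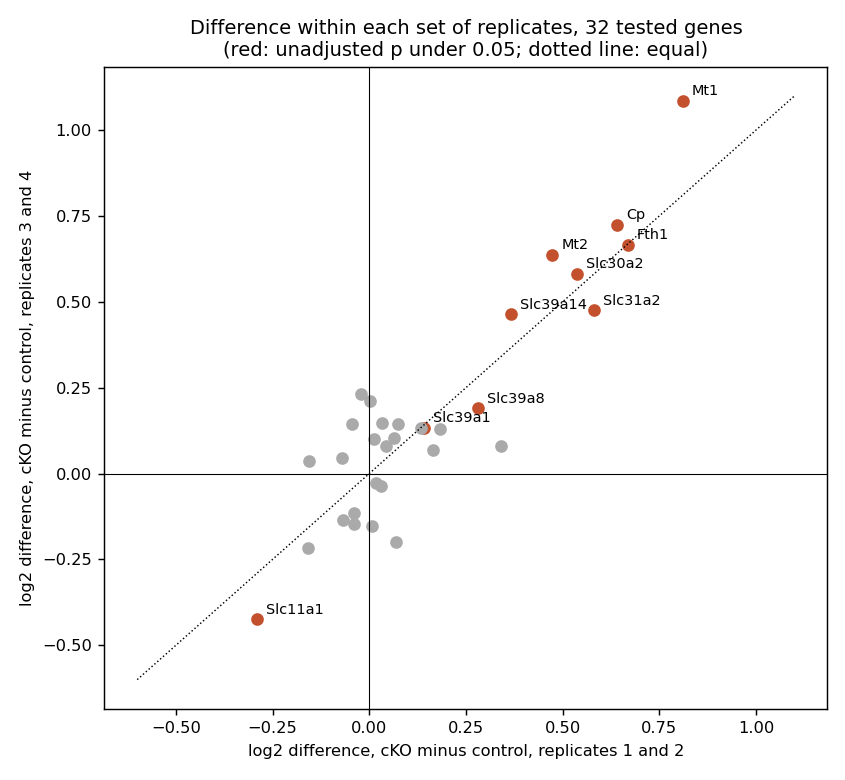
Log2 difference, cKO minus control, within replicates 1 and 2 (horizontal) and within replicates 3 and 4 (vertical) for the 32 tested genes, with a dotted line where both are equal. The 9 red points with a higher and the 1 with a lower cKO level (unadjusted p under 0.05, chosen on the same libraries) lie in the upper right and lower left, and the grey points lie around 0.

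Markers of other cells in the preparation moved with the groups to different extents. Over all genes tested, 8.85% were higher and 7.53% lower at an unadjusted p under 0.05, and the counts below are to be read against these shares. The 10 milk genes (Csn1s1, Csn1s2a, Csn1s2b, Csn2, Csn3, Wap, Lalba, Muc15, Xdh, Btn1a1) all had a higher mean in cKO, 9 with an unadjusted p under 0.05, and summed to 4174 to 6038 FPKM in control and 9201 to 16315 FPKM in cKO. Summed adipocyte markers were 77.5 to 119 FPKM in control and 98.4 to 130 FPKM in cKO. Of the 3 genes tested, 2 were higher and 0 lower at an unadjusted p under 0.05. Most of the sum was Fabp4, with means of 96.7 and 111 FPKM (limma, unadjusted p = 0.158). The higher genes, Cidec and Adipoq, averaged at most 1.56 FPKM in either group. Red cell markers summed to 22.5 to 30.0 FPKM in control and 14.5 to 28.0 FPKM in cKO, where 2 of 5 were lower at an unadjusted p under 0.05. Neutrophil markers summed to 159 to 187 and 169 to 234 FPKM (of 3 tested, 1 higher and 1 lower), endothelial markers to 61.9 to 70.8 and 44.7 to 69.1 FPKM (1 of 4 lower) and lymphocyte markers to 3.22 to 24.5 and 1.81 to 3.46 FPKM (of 4 tested, 2 lower). Fibroblast markers (282 to 578 and 195 to 455 FPKM), myoepithelial markers (1587 to 2162 and 1487 to 2049 FPKM) and hormone-sensing luminal markers (25.6 to 39.5 and 21.1 to 27.4 FPKM) overlapped between the groups. Of the 6 myoepithelial genes, 3 had a lower and 3 a higher mean in cKO. Lower at an unadjusted p under 0.05 (limma) were 2, Krt14 (log2 fold change -0.39) and Trp63 (-0.42, no overlap). Acta2 had the highest means of the 6 (825 and 953 FPKM). The part of these cells in the differences of the metal genes was not tested.

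Other genes of metal handling, outside the 40, were read from a separate list of 49 genes, of which 40 were tested. In this list 1 gene passed adjustment, against 0.892% of all genes, and 7 were higher and 3 lower at an unadjusted p under 0.05, against 8.85% and 7.53% of all genes. Its median log2 fold change was 0.012. Iron carriers and regulators gave 7 higher and 2 lower of 26 tested, and copper chaperones and copper enzymes gave 0 higher and 1 lower of 14 tested, to be read against the same shares. Flvcr1, which exports haem, rose from 14.9 ± 1.36 to 21.6 ± 2.29 FPKM (SD, n = 4 each, log2 fold change 0.50, limma, adjusted p = 0.0465). The call was lost with scaling to the same sum of FPKM (limma, adjusted p = 0.0866), also without the milk genes (0.0738), and with no filter on low values (0.101). It was also lost without any library but cKO replicate 3 (adjusted p up to 0.125).

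Transferrin (Trf), the iron carrier of plasma and milk, was at 24.1, 22.2, 35.97 and 32.7 FPKM in control and 66.7, 50.9, 31.3 and 81.1 FPKM in cKO. Replicate 3 of cKO lay within the control range and the others above it (log2 fold change 0.92, limma, adjusted p = 0.155). Lactoferrin (Ltf), the other iron-binding milk protein, averaged 234 ± 26.9 and 243 ± 18.2 FPKM (SD, n = 4 each) and overlapped (limma, adjusted p = 0.814). Of the iron regulatory proteins, which bind the RNAs of ferritin and Tfrc when iron is short, Aco1 averaged 23.3 ± 0.294 and 28.1 ± 1.38 FPKM (limma, adjusted p = 0.0769) and Ireb2 averaged 10.4 ± 1.21 and 11.1 ± 1.01 FPKM (limma, adjusted p = 0.714, SD, n = 4 each).

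Higher at an unadjusted p under 0.05 were also Lcn2, a carrier of iron bound to siderophores (log2 fold change 0.31), Slc46a1, a transporter of folate and haem (0.45), and the metal reductases Steap4 (0.42) and Steap3 (0.36). Lower were Tmprss6, a protease that limits hepcidin (-0.57), Hmox1, which breaks down haem (-0.27), and Loxl3, a copper-dependent lysyl oxidase (-0.26). None of these passed adjustment. The unadjusted p was above 0.05 for both Hmox1 and Loxl3 without control replicate 1, control replicate 3, cKO replicate 1 or cKO replicate 3, for Hmox1 also without control replicate 4, and for Loxl3 also without cKO replicate 4. For Steap3 it was above 0.05 without control replicate 1, control replicate 2, cKO replicate 1 or cKO replicate 4. Hmox1 was also above 0.05 with no filter on low values, and Steap4 with TPM, in which every library is scaled to the same sum. Atox1, which hands copper to Atp7a and Atp7b, averaged 150 ± 19.8 and 166 ± 16.0 FPKM (SD, n = 4 each, limma, adjusted p = 0.541).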

How the data were processed

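RNA-seq libraries of mammary epithelial cells from 4 control and 4 cKO mice were analysed, with groups and replicate numbers taken from the sample labels. After library construction with the NEBNext Ultra kit and mapping to GRCm38 by Hisat2, the authors calculated FPKM per gene and deposited them in 1 table, together with each gene's length. The submitters' processing notes name StringTie 1.3.3b, featureCounts 1.5.0-p3 and mm9, but 99.7% of the 55480 gene identifiers found in GENCODE vM21 match its coordinates, and GRCm38 is used here. The annotation release and the use of strand in counting are not given in the sources used here. FPKM times gene length was a whole multiple of 1 step per library for 100% of values above 0 (tolerance of 0.01 of a read), which gave the reads per gene. The deposited FPKM already include median-of-ratios size factors.

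FPKM are not counts, so log2(FPKM + 1) was tested with limma 3.58.1 (empirical Bayes with trend, no block) in R 4.3.3 for genes with a mean of at least 0.5 FPKM. The fit was first tested on simulated data. Genes below the filter were compared by an exact permutation test, for which 4 against 4 allow no p under 0.0286. Promoter windows came from RefSeq. A gene of the red cell marker list is not reported here, and the list was summed without it. Members and lists were chosen with earlier results of these data known. Genes were given by library if their unadjusted p was under 0.05, if they were the most abundant of their family, or if they were on a fixed list of well-known members. The other metal genes were named if their unadjusted p was under 0.05 at a mean of at least 1 FPKM, or if they were Trf, Ltf, Ireb2, Aco1 or Atox1. Alternatives were a pseudocount of 0.1, no filter, scaling to the same sum (TPM) with and without milk genes, a block by replicate number or by set, limma-voom on recovered reads, and each library left out. At 16123108 to 19896988 reads on genes per library, counting error matters most for genes with few reads. Python 3.11.15, pandas 2.3.3, scipy 1.17.1 and matplotlib 3.10.9 served for all else.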

Additional observations from a re-analysis of the deposited data

Results flagged for a closer look

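In groups of 4 libraries, a library was singled out where its gap to the nearest other library, divided by the range of the group, exceeded Dixon's critical value. This held for 5 of the 101 gene and marker groups examined, where chance gives about 1 in 20 (5.05 groups). Fth1 was at 1019 FPKM in cKO replicate 4, with the other cKO libraries at 658 to 695 FPKM. Mt2 was at 167.8 FPKM in cKO replicate 3, with the others at 98.4 to 100.3 FPKM. Slc39a13 was at 5.07 FPKM in control replicate 1, with the other controls at 5.88 to 6.02 FPKM. Slc30a4 was at 0.0115 FPKM in cKO replicate 3, which is a single read, and at 0 in the others. The summed red cell markers were at 28.0 FPKM in cKO replicate 1, with the other cKO libraries at 14.5 to 15.2 FPKM.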

How the results depend on the processing

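The number of metal genes with an adjusted p under 0.05 was 3 and became 0 with no filter on low values, 1 with the replicate block, 5 with a block by set (replicates 1 and 2, replicates 3 and 4), and 5 with limma-voom on recovered reads, while leaving out each library gave 0 to 2. Over all genes this number was 135 and became 10, 50, 442 and 252 under the same 4 settings, and 0 to 78 with a library left out (0 without control replicate 4). For the other metal handling genes it was 1 and became 0 with no filter, 0 with TPM without the milk genes, 0 with the replicate block, 2 with the set block and 2 with limma-voom, and 0 to 1 with a library left out. The number at an unadjusted p under 0.05 stayed within 8 to 12 of the metal genes, against 10, and ran from 2042 to 3235 over all genes, against 2480. TPM moved the median of all genes to -0.048. Same-numbered control and cKO libraries deviated together with correlations over genes of 0.0797 to 0.137 (mean 0.11). Libraries of the same set with another number had a mean of 0.13, and those of the other set -0.12. Since 1 of the 4 pairs was not over 0.1, the numbers were not taken as pairs. With the replicate block 1 gene, Slc31a2, kept an adjusted p under 0.05, while Slc30a2 had 0.0633, Slc39a14 0.0614, Mt1 0.0633 and Fth1 0.0727. With no filter, 31373 genes were tested and the adjusted p was 0.0975 for Slc30a2, 0.0507 for Slc31a2 and 0.0971 for Slc39a14. TPM left 2 metal genes, and TPM without the milk genes left 3, with Fth1 (0.0488) in place of Slc39a14 (0.0836). Fth1 also passed adjustment with the set block (0.0379) and limma-voom (0.0428), and Cp with limma-voom (0.0475). Under TPM, Tmprss6 (0.0446) was called in place of Flvcr1 (0.0866). With the replicate block, Flvcr1 had an adjusted p of 0.0644 and Loxl3 an unadjusted p of 0.051 (limma). Tmprss6 was also under 0.05 by limma-voom (0.0425), and Aco1 with the set block (0.0403). With a library left out, the log2 fold change ran from -0.033 to 0.22 for Atp7a, where it turned negative without control replicate 3, and from -0.14 to 0.021 for Ftl1, where it turned positive without control replicate 4. Ltf, at 0.059, was at -0.0024 under TPM and ran from -0.0090 to 0.12 with a library left out. Slc30a5 was at 0.020 without control replicate 4 and Mtf1 at 0.057 without control replicate 3. Where no value is given for it, the cause was not tested.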
